A study of Mus musculus with 17 samples.

Results

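Partially reprogrammed cells (piPSC) are cells that began to turn from fibroblasts into stem cells under forced expression of reprogramming factors and are labelled as not having completed the change. The 2 WT piPSC samples of the series, both from clone B1 at passage 6, were set against the 3 WT pluripotent samples that share their strain and sample code prefix. Those 3 were 2 samples of embryonic stem cells (ESC, passage 10 to 15) and 1 of induced pluripotent stem cells (iPSC, passage 6), and they were pooled as 1 group. The 5 samples, of 17 in the series, were chosen by their labels alone, and all were WT cells of the strain 129/B6 (v6.5). The labels describe reprogramming for Nanog-null fibroblasts, which received retroviral Oct4 (Pou5f1), Sox2 and Klf4 and, in some cases, c-Myc. Their colonies were then moved onto feeder fibroblasts in LIF and the inhibitor mixture called 2i. The labels do not say which factors made clone B1 or the WT iPSC, or in which medium the piPSC grew. No label says that the 2 piPSC samples were separate cultures, so the spread between them may be technical. The p-values measure only the spread within both groups, including that between iPSC and ESC, and they say nothing of other clones. Over genes, the median absolute log2 difference in scaled fragments was 0.0986 between the ESC samples and 0.186 between the piPSC samples. Between the iPSC sample and the ESC mean it was 0.372.

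In mouse pluripotent cells, Pou5f1, Sox2 and Nanog sit at the centre of a set of transcription factors that sustain each other and keep genes of differentiated cells off. LIF acts through STAT3, and 2i blocks the kinases MEK and GSK3, which lowers ERK signalling and raises Wnt signalling. During retroviral reprogramming the introduced factors are at first supplied by the viruses. In completed iPSC the viruses are usually silenced and the cell's own network takes over, and cells that stall before that point are commonly called partially reprogrammed.

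RNA was sequenced to 28.5 and 29.4 M estimated fragments in the piPSC samples and to 20.8 to 26.9 M in the pluripotent samples. Of 28670 genes, 16035 were tested, which required at least 10 fragments in at least 2 of the 5 samples. A gene was called when edgeR's quasi-likelihood test gave a Benjamini-Hochberg adjusted p under 0.05 and the fitted change was at least 2-fold. By that rule 7064 genes differed (44.1%), of which 3241 were higher in piPSC (20.2%) and 3823 lower (23.8%), so a count of members within a gene list is read against those shares. The FPKM of the groups did not overlap for 77.9% of the tested genes, so a gap between the groups is common. Leaving out a piPSC sample leaves 1, which the fit then assumes to vary like the pluripotent group, and counts are given without it where they move by over 1.5 times. The first principal component took 90.3% of the variance and separated the piPSC from all 3 pluripotent samples, and the second (7.34%) separated the iPSC sample from the ESC samples. Levels below are FPKM (fragments per kilobase of gene and per M mapped fragments, as deposited), and changes are log2 of piPSC over pluripotent with the standard error (SE) of the fit to 2 and 3 samples. In bulk RNA, fewer cells of a type and less RNA per cell cannot be told apart.

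The RNA of 3 reprogramming factors was far higher in piPSC than in pluripotent cells, while Sox2 was lower and Nanog was nearly absent. Pou5f1, the POU-domain factor also called Oct4, stood at an FPKM of 6975 and 7303 in the piPSC samples, 757 and 760 in the ESC samples and 640 in the iPSC sample. Klf4, a Krüppel-like factor, stood at 2548 and 3065 in piPSC against 65.3, 65.0 and 57.6. Myc, a growth-promoting factor, stood at 1237 and 1506 against 4.21, 2.84 and 6.85. The piPSC samples lay above every pluripotent sample for these 3 genes, with log2 changes of 3.29 ± 0.13, 4.68 ± 0.14 and 8.13 ± 0.47. Their adjusted p-values in edgeR's quasi-likelihood test were 3.9e-05, 2.3e-05 and 1.0e-04. The counts are per gene, so RNA from a retrovirus and RNA from the cell's own gene cannot be told apart.

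Sox2, the HMG-box partner of Pou5f1, was the only factor of the retroviral set below the pluripotent level. Its FPKM was 28.6 and 51.5 in piPSC against 141, 142 and 156, a log2 change of -1.97 ± 0.26 (edgeR, adjusted p = 0.0014). The 2 piPSC samples differed from each other more for Sox2 than for Pou5f1, Klf4 or Myc. Nanog stood at 3.12 and 2.91 in piPSC against 568, 574 and 762. That is 0.475% of the mean pluripotent level, with a log2 change of -7.92 ± 0.23 (edgeR, adjusted p = 2.3e-05). In samples outside the comparison Nanog was 0.242 and 0.0539 in WT embryonic fibroblasts (MEF), below both piPSC samples. The MEF are labelled C57/B6 at passage 2 and carry another sample code prefix than the compared samples. Every MEF value given here and below thus differs from the piPSC in strain, prefix and passage as well as cell type.

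The Nanog promoter is shown because it is a known target of Pou5f1 and Sox2, which bind side by side at a composite element, and these piPSC held high Pou5f1 RNA, some Sox2 RNA and almost no Nanog RNA. The sequence covers the 250 bases before the RefSeq start of Nanog that lies farthest upstream of the 2 listed (build GRCm38.p6, chr6:122707239-122707488, plus strand).
Nanog: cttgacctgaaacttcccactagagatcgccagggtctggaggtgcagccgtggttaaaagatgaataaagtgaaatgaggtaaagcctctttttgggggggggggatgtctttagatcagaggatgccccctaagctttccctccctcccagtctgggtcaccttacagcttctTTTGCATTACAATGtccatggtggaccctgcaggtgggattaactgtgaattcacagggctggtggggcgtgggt
The capitals mark the match to the composite pattern (CATTGT, any base N, then ATGCAAA), read on either strand, which starts 75 bases before the gene start. The pattern was written with such elements in mind, so the match is a description and not a test of binding. Of 27025 RefSeq windows of 300 bases, 1 gene per window, 1 held the composite pattern (0.0037%), and it is the Nanog window shown. That share is therefore no separate background for the match. The octamer ATGCAAAT, which shares 7 letters with the pattern, was held by 477 windows (1.77%). A comparison of promoter features between gene groups is void. RefSeq windows were matched for 76.0% of the tested genes, 67.1% of the genes that piPSC did not switch on and 72% of those on only in piPSC, and 80% was required.

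Most of the pluripotency network was low in piPSC, but not evenly. Of 22 general pluripotency genes, 21 could be tested, 18 fell and none rose, with a median log2 change of -3.87 beside -0.05 over all genes tested. Of 12 naive-state genes, 11 could be tested and 10 fell, with a median of -5.66. Genes low in 1 group passed the filter through the other. So these counts, and those of the lists below, describe the lists and are no separate support. Of the 29 members with a mean pluripotent FPKM of at least 10, 12 stood below 1% of that level in piPSC, 4 at 1% to 10%, 10 at 10% to 50% and 3 at 50% or more. Among all 6509 tested genes with such a level, 2.09% stood below 1% and 80.1% at 50% or more.

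The genes lowest relative to their pluripotent level included much of the core and naive circuitry. Dppa5a, an RNA-binding protein gene that is among the most abundant transcripts of naive cells, stood at 18.7 and 18.2 in piPSC against 6230, 6872 and 4384, a log2 change of -8.29 ± 0.31. Esrrb, an orphan nuclear receptor of the naive network, stood at 0.536 and 0.511 against 164, 167 and 151. Esrrb was not tested because the authors' quantification marked it as failed in some samples. Prdm14, a factor that holds DNA methylation low in naive cells, stood at 0.124 and 0.0882 against 22.3, 23.5 and 29.4. Utf1, a chromatin-bound factor of undifferentiated cells, stood at 0.301 and 0.123 against 50.4, 55.3 and 49.0. Sall4, a zinc-finger partner of Pou5f1, stood at 0.287 and 0.247 against 29.1, 31.9 and 64.7. Each of these lay below 1% of the pluripotent mean, and the groups did not overlap.

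Naive-state regulators that act downstream of LIF or 2i were also low. Tbx3 stood at 0.213 and 0.244 in piPSC against 41.1, 46.6 and 69.8, and Klf2 at 0.937 and 1.08 against 99.0, 98.3 and 109. Tfcp2l1, a LIF and 2i target, stood at 1.31 and 1.90 against 72.3, 78.8 and 93.2. Klf5 was less reduced, at 7.00 and 7.02 against 38.9, 40.5 and 43.2, and Zfp57, which guards imprints, stood at 101 and 119 against 314, 334 and 342. The log2 changes were -8.09 ± 0.34 for Tbx3, -6.65 ± 0.15 for Klf2, -5.66 ± 0.24 for Tfcp2l1, -2.54 ± 0.12 for Klf5 and -1.59 ± 0.11 for Zfp57. All 5 genes fell, but their piPSC levels ranged from under 1% of the pluripotent mean to 33.4% of it. Zfp42, also called Rex1, stood at 1.07 and 0.965 against 227 and 220 in ESC and 55.3 in iPSC.

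A second set of pluripotency genes was on in piPSC at a reduced level. Tdgf1, the Nodal co-receptor Cripto, stood at 57.6 and 94.2 in piPSC against 299, 306 and 377, a log2 change of -2.11 ± 0.24. Fbxo15, an early reporter gene of reprogramming, stood at 86.9 and 83.8 against 238, 234 and 378, a change of -1.72 ± 0.24. Fgf4, the main FGF ligand of pluripotent cells, stood at 40.4 and 30.8 against 82.9, 79.2 and 75.9. Its log2 change was -1.15 ± 0.15 and became -0.91 without piPSC 2, which is less than 2-fold. Tdgf1, Fbxo15 and Fgf4 were at or near 0 in MEF, where none exceeded 0.266. L1td1, an RNA-binding protein gene of pluripotent cells, stood at 124 and 147 in piPSC against 139, 137 and 107 and was at 0 in both MEF samples. Its log2 change of 0.10 ± 0.14 did not pass the test, and the sign turned with upper-quartile scaling (-0.017). Eras, a Ras-like gene of pluripotent cells, was not called either, at 5.78 and 3.96 in piPSC against 6.04, 5.20 and 8.58.

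**Figure D1:**
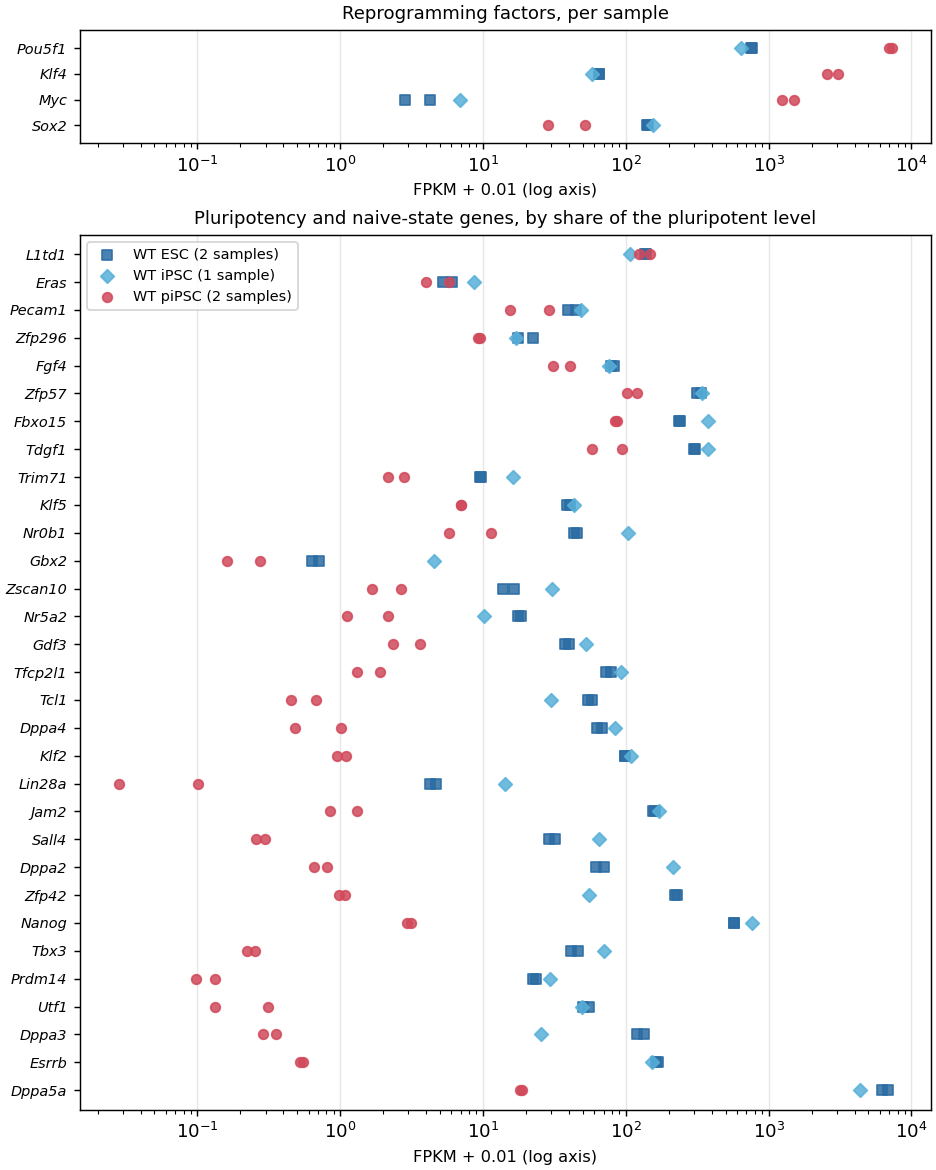
FPKM (log axis, 0.01 added) of the reprogramming factors (top) and of general pluripotency and naive-state genes (bottom) in each of the 5 samples, ordered by the share of the pluripotent level in piPSC. The piPSC points (circles) lie above the others for Pou5f1, Klf4 and Myc and below them for Sox2, and in the lower panel they range from 0.317% of the pluripotent mean for Dppa5a to 106% for L1td1.

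Genes of the germ line, several of which are expressed in naive pluripotent cells when their promoters lose DNA methylation, were mostly silent in piPSC. Of 17 tested germline genes (18 in the list), 14 fell and 1 rose, with a median log2 change of -6.45. Rnf17, a Tudor-domain germline gene, stood at 0.202 and 0.0936 in piPSC against 37.8, 39.1 and 43.6, a log2 change of -8.10 ± 0.25. Dazl, a germ cell RNA-binding protein gene, stood at 0.181 and 0.125 against 26.9, 24.8 and 58.6, and Hormad1, a meiotic chromosome gene, at 0.171 and 0.148 against 21.8 to 43.6. Piwil2, which acts in the piRNA pathway, was the member that rose, at 6.23 and 5.34 against 2.68, 2.59 and 1.90. The named members were at or below 0.303 in MEF, so Rnf17, Dazl and Hormad1 were near 0 in both MEF and piPSC.

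The Zscan4 genes, which mark rare cells resembling the 2-cell embryo, were nearly absent from piPSC, but the pluripotent samples themselves differed widely. Zscan4f stood at 0.0357 and 0.128 in piPSC, 19.4 and 17.9 in ESC and 136 in iPSC. Zscan4c and Zscan4d showed the same order, with piPSC at or below 0.299 and iPSC at 114 and 137. The copies are near-identical, so reads may be shared between them and the values of single copies are uncertain. All 6 tested genes of the 2-cell list (8 matched of 10) fell, but none did without piPSC 1 or without piPSC 2. For the 3 genes named, the adjusted p in edgeR was then 0.056 to 0.076. Without the iPSC sample the log2 change of Zscan4f went from -8.94 to -7.10.

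To list what piPSC failed to switch on without a fold or test, genes were taken whose FPKM was at least 10 in all 3 pluripotent samples and below 1 in both piPSC samples. There were 143 such genes, 124 of them protein coding, with a median pluripotent level of 30.1. No minimum of fragments was set, and Gm10351 is counted on 4 fragments in all in the pluripotent samples. The choice fixes the direction, so the 142 that were also called lower add nothing. The highest was Fabp3, a fatty acid binding protein gene, at 0.963 and 0.749 in piPSC against 171, 178 and 94.8. Dppa2, which with Dppa4 primes developmental promoters, stood at 0.8 and 0.646 against 61.6, 70.4 and 212. Dppa3, also called Stella, stood at 0.346 and 0.277 against 119, 134 and 25.3. Lefty2, an inhibitor of Nodal, stood at 0.591 and 0.393 against 120, 123 and 56.4. The iPSC sample was above the ESC samples for Dppa2 and below them for Fabp3, Dppa3 and Lefty2.

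Others among the 12 highest genes of that set spanned germline, ion transport and metabolism. Aurkc, a meiotic Aurora kinase, stood at 0.422 and 0.313 against 97.8 or more in ESC and 81.7 in iPSC. Rpl10l and Cyct, testis-type counterparts of a ribosomal protein and of cytochrome c, stood at no more than 0.386 in piPSC and at 67.4 to 119 in the pluripotent samples. Atp1b1, a sodium pump subunit, Sgk1, a serum-induced kinase, and Slc38a4, an imprinted amino acid transporter gene, stood at no more than 0.780 in piPSC and at 44.4 to 109 in the pluripotent samples. 2410141K09Rik stood at 0.165 and 0.405 against 103, 109 and 66.8. Atp1b1, Sgk1 and Slc38a4 were on in MEF, at 44.4 to 160, so for them the piPSC were low beside both fibroblasts and pluripotent cells.

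In samples of other strains or genotypes, which stood outside the fit, part of the set was on and part was off. Of the 143 genes, 91 were below 1 in both MEF samples and 28 were at 10 or more in both. At 10 or more stood 79 in all 4 WT pluripotent samples of the C57/B6 strain and 93 in all 6 Nanog-null samples. Of the 91 low in MEF, 51 were at 10 or more in all 6 Nanog-null samples. Cyct was an example of the others, at 3.03 to 7.39 in Nanog-null samples and 151 to 256 in the C57/B6 pluripotent samples.

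**Figure D2:**
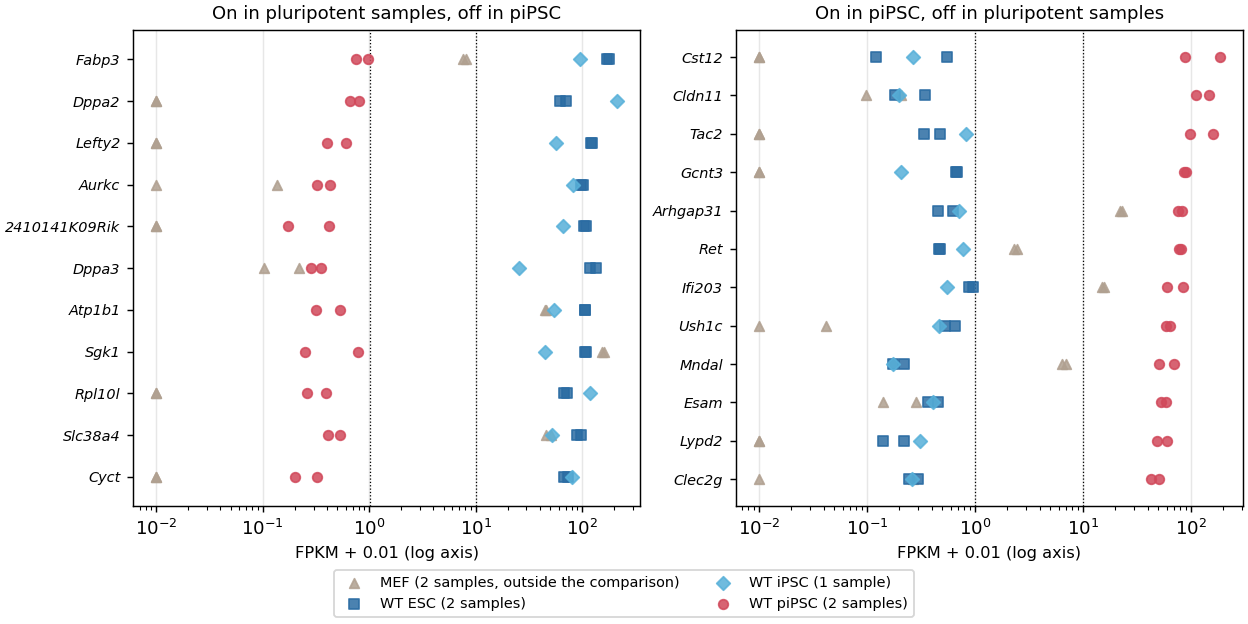
FPKM (log axis, 0.01 added) of genes among the 12 highest that were on in the pluripotent samples and off in piPSC (left) and of the 12 highest on in piPSC and off in the pluripotent samples (right), with MEF from outside the comparison. Dotted lines mark FPKM of 1 and 10. The piPSC circles lie below 1 on the left and above 10 on the right, as the choice requires, and the MEF triangles fall on either side.

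Some genes of the set off in piPSC are fibroblast genes. Col1a1, a type I collagen gene, stood at 0.364 and 0.319 in piPSC, 50.4 and 46.8 in ESC, 63.0 in iPSC and 1248 and 1230 in MEF. Col1a2, Col3a1 and Lox, a collagen cross-linking enzyme, stood at no more than 0.464 in piPSC and at 21.4 to 52.1 in the pluripotent samples. Of the 31 genes of the fibroblast and mesenchymal list, all tested, 18 fell and 6 rose, with a median log2 change of -3.91. Their summed FPKM was 891 and 1027 in piPSC and 744 to 936 in the pluripotent samples. Thy1, a fibroblast surface marker that is lost early in reprogramming, stood at 0.246 and 0.135 in piPSC, 4.18 to 7.23 in the pluripotent samples and 169 and 172 in MEF. The labels describe feeder fibroblasts for colonies from Nanog-null fibroblasts, which are not among the samples compared. The part of fibroblast RNA in the pluripotent samples was not tested.

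The members of the fibroblast list that rose were other genes. Cd44, a hyaluronan receptor, stood at 108 and 107 in piPSC against 3.29, 2.90 and 3.23, a log2 change of 5.17 ± 0.11 (edgeR, adjusted p = 2.3e-05). S100a4, a calcium-binding protein gene, stood at 119 and 76.0 against 2.60, 1.29 and 3.55. Snai2, a repressor of epithelial genes, stood at 3.49 and 4.25 against 0.584, 0.685 and 1.17, and Fn1, the fibronectin gene, at 393 and 542 against 226, 222 and 208. Fn1 rose by a log2 of 1.07 ± 0.15, which became 0.95 with upper-quartile scaling and 0.87 without piPSC 2, under 2-fold in both cases. The other 2 that rose, Dcn and Col5a2, lost the call without piPSC 1 (edgeR, adjusted p = 0.40 and 0.070) and without either ESC sample, Col5a2 also without piPSC 2. With upper-quartile scaling 3 members rose. Cd44 and S100a4 were high in MEF too, at 483 and 490 and at 251 and 259. So members of the list that are all high in MEF lay on both sides of the pluripotent level in piPSC.

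Ligands and receptors of the signalling pathways of pluripotent cells moved in different directions. Nodal, the TGF-beta family ligand, stood at 0.215 and 0.204 in piPSC against 30.7, 30.1 and 41.8, a log2 change of -7.33 ± 0.27. Lefty1, an inhibitor and target of Nodal, stood at 0.164 and 0.340 against 49.3, 43.9 and 55.3, a change of -7.77 ± 0.26. The receptor genes Acvr1b, Acvr2b and Bmpr1a and the transducer Smad2 were not called. Smad7, a feedback inhibitor, stood at 3.16 and 4.51 against 14.8, 16.2 and 25.1 and fell. Of the 16 Nodal and BMP genes, all tested, 7 fell and 3 rose, with a median log2 change of -0.53. The low members were ligands, a co-receptor, a DNA-binding partner and feedback genes of the Nodal branch.

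On the BMP side, Id1, a target gene that blocks differentiation factors, stood at 111 and 124 in piPSC against 1.22, 1.09 and 2.97. Its log2 change was 6.03 ± 0.42, and 6.64 without the iPSC sample. Id2 and Id3, targets of the same kind, did not pass the test: Id3 stood at 12.3 and 14.2 against 4.60 and 4.73 in ESC and 25 in iPSC. Without the iPSC sample Id3 passed the test, with a log2 change of 1.56. Id1 was also on in MEF, at 82.3 and 90.8.

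Wnt target genes were low in piPSC. Of 11 tested (13 in the list), 9 fell and none rose, with a median log2 change of -3.70. Axin2, a general Wnt feedback gene, stood at 0.151 and 0.159 against 7.71, 6.44 and 9.01, a log2 change of -6.85 ± 0.30. Cdx1, a homeobox target, stood at 0.188 and 0.268 against 29.0, 32.3 and 42.5. Tcf7 and Tcf7l1, transcription factors of the pathway, stood at no more than 0.687 and 1.22 in piPSC and at no less than 13.5 and 25 in the pluripotent samples. Without piPSC 1 or without piPSC 2, 5 fell.

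Genes induced by ERK signalling, including its feedback inhibitors, were high. Of 15 tested (16 in the list), 9 rose and none fell, with a median log2 change of 1.59. Without piPSC 1 or without piPSC 2, 5 rose. Spry4, a feedback inhibitor, stood at 15.1 and 18.7 in piPSC against 0.104, 0.121 and 0.335, a log2 change of 6.48 ± 0.47, or 7.23 without the iPSC sample. Dusp4, an ERK phosphatase, stood at 78.7 and 67.8 against 1.19, 1.26 and 1.19, a change of 5.92 ± 0.13 (edgeR, adjusted p = 2.3e-05). Ccnd1, cyclin D1, stood at 249 and 236 against 12.3, 11.7 and 29.9, a change of 3.78 ± 0.46, or 4.39 without the iPSC sample. Spry1, Spry2, Ier3 and Dusp5 of the same list were not called. Spry2 was called without the iPSC sample (log2 change 1.10), and 1 member fell with upper-quartile scaling and in DESeq2. Fgfr1, the main FGF receptor of these cells, stood at 42.1 and 37.8 against 27.7, 27.5 and 27.0, less than 2-fold higher. Of 10 tested FGF ligand and receptor genes (14 in the list), 7 fell and 1 rose, with a median log2 change of -3.05. Without piPSC 1, 4 fell, and without piPSC 2, 3 fell. Among those that fell, Fgf4 (above) was the member above an FPKM of 10 in the pluripotent samples. Fgfr3, another receptor gene, rose, at 1.72 and 3.87 against 0.445, 0.345 and 0.614.

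Receptor and transducer of the LIF pathway were present in piPSC. Stat3 stood at 59.6 and 54.7 against 17.0, 14.1 and 15.2, a log2 change of 1.97 ± 0.10. Lifr, the LIF receptor gene, stood at 9.38 and 9.42 against 4.22, 3.98 and 3.62, and Socs3, the feedback inhibitor that STAT3 induces, at 13.5 and 20.1 against 5.21, 5.17 and 5.84. Junb stood at 34.4 and 34.9 against 3.06, 2.26 and 2.62. These 4 of 12 tested members rose and none fell, with a median log2 change of 0.30. The naive factors Klf2, Tfcp2l1 and Tbx3 were thus low in samples in which Stat3 and Socs3 were above the pluripotent level.

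**Figure D3:**
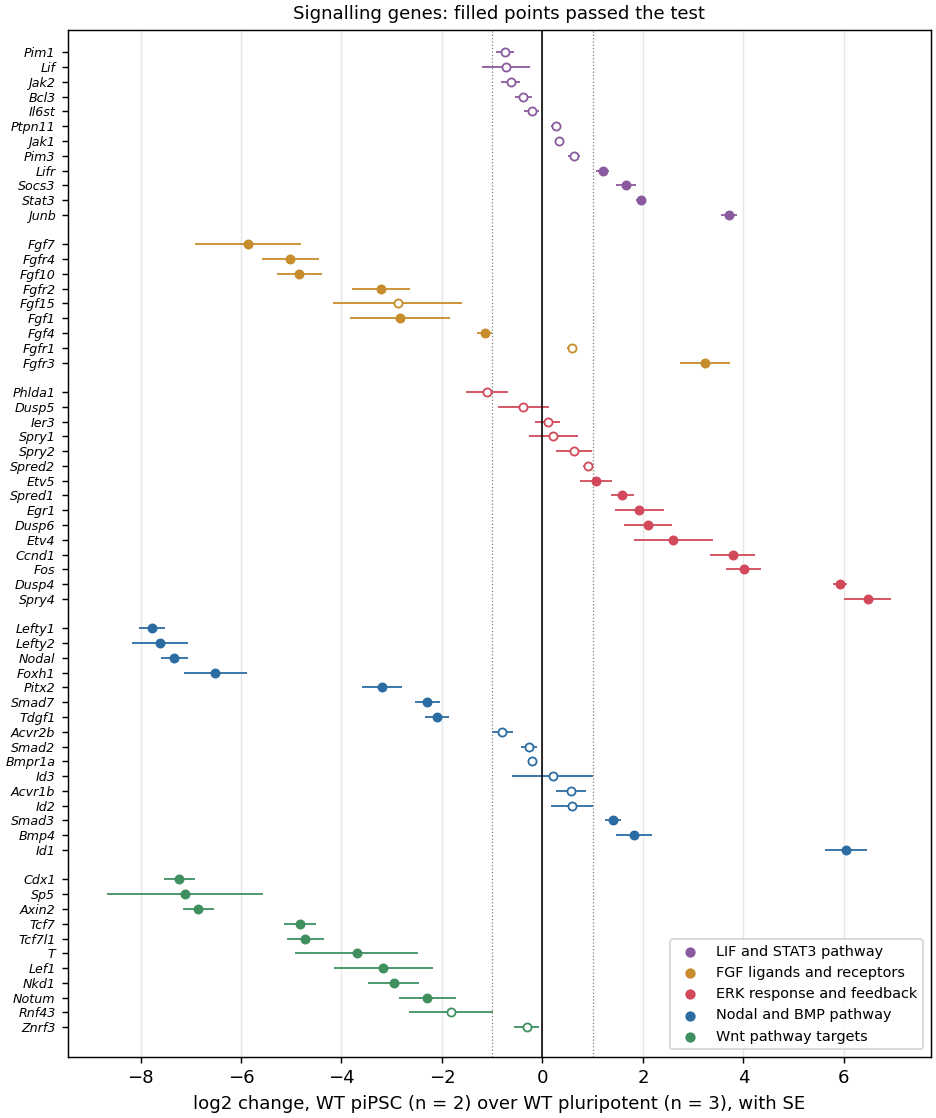
Log2 change of piPSC (n = 2) over pluripotent samples (n = 3), with its SE, for the tested genes of 5 signalling lists that had fragments in both groups. Filled points passed the test and dotted lines mark 2-fold. Wnt targets and the Nodal ligands lie to the left, and the ERK genes Dusp4 (5.92) and Spry4 (6.48) and the BMP target Id1 (6.03) to the right.

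Regulators of chromatin showed a few large changes among many small ones. Tet1 and Tet3 encode enzymes that oxidise methylated cytosine. Tet1 stood at 3.56 and 5.79 in piPSC against 26.4, 28.7 and 28.7, a log2 change of -2.63 ± 0.20, while Tet3 stood at 16.6 and 18.4 against 0.927, 0.877 and 1.30, a change of 4.11 ± 0.21. Tet2 differed by less than 2-fold. Trim28, the co-repressor that silences retroviruses, stood at 112 and 128 against 290, 303 and 470, and Setdb1, the histone methyltransferase that works with it, differed by less than 2-fold. Dnmt3l, a cofactor of de novo DNA methylation, stood at 0.180 and 0.0961 in piPSC against 3.21 and 2.53 in ESC and 18.5 in iPSC. It fell, but lost the call without piPSC 1 or 2 (edgeR, adjusted p = 0.072 and 0.090), and its log2 change of -5.93 became -4.44 without the iPSC sample. Of the 20 genes of DNA methylation and retroviral silencing, all tested, 5 fell and 2 rose, with a median log2 change of -0.76, shares close to and below those over all genes. Without piPSC 1 or without piPSC 2, 3 fell.

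Polycomb genes, whose complexes repress developmental genes, included members that fell and members that rose, in shares (29.2% and 12.5%) close to and below those over all genes. Mtf2 and Jarid2, accessory subunits of Polycomb complex PRC2, stood at 20.2 and 20.4 and at 16.6 and 17.7 in piPSC. Their pluripotent levels were 162, 161 and 204 and 74.6, 72.5 and 68.2, and their log2 changes were -3.03 ± 0.13 and -2.10 ± 0.11. The core subunits Suz12 and Eed fell, by log2 changes of -1.76 ± 0.21 and -1.68 ± 0.12. Ezh2, the catalytic subunit, stood at 36.6 and 40.7 against 75.5 to 80, a change of -1.00 ± 0.10 that fell just short of the 2-fold rule and met it under most alternatives, with the lowest value under upper-quartile scaling (-1.12). Among the chromobox subunits of PRC1, Cbx7, the form that prevails in pluripotent cells, stood at 6.85 and 8.10 against 63.5, 62.8 and 61.6. Phc2, a polyhomeotic subunit of PRC1, went the other way and rose by a log2 of 1.89. Of 24 Polycomb genes, all tested, 7 fell and 3 rose (5 without the iPSC sample), with a median log2 change of -0.57.

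Smarca2 and Smarca4 encode the alternative ATPases of the BAF remodelling complex, and pluripotent cells chiefly use Smarca4. Smarca2 stood at 82.4 and 83.1 in piPSC against 3.43, 3.71 and 11.2, a log2 change of 3.83 ± 0.58 that became 4.67 without the iPSC sample. Smarca4 stood at 47.4 and 50.8 against 37.0, 39.4 and 45.9 and was not called. On the FPKM scale Smarca2 RNA thus exceeded Smarca4 RNA in piPSC, and the reverse held in each pluripotent sample. Of the other BAF genes, Actl6a fell, at 31.8 and 33.8 against 95.7, 91.0 and 121. Of 17 tested (18 in the list), 1 rose (2 without the iPSC sample) and 2 fell, with a median log2 change of 0.05.

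To list what piPSC express that pluripotent cells do not, genes were taken with an FPKM of at least 10 in both piPSC samples and below 1 in all 3 pluripotent samples. There were 100, of which 92 were protein coding, with a median piPSC level of 20.9. Again no minimum of fragments was set, and AC153918.1 is counted at 32.3 and 34.4 on 2 piPSC fragments in all. The choice again fixes the direction of the 99 that were called higher. Cst12, a cystatin gene, stood at 184 and 88.4 in piPSC against 0.542, 0.112 and 0.257. Cldn11, a tight junction gene of myelin and testis, stood at 111 and 148 against 0.335, 0.172 and 0.189, and Tac2, a neuropeptide gene, at 98 and 159 against 0.461, 0.328 and 0.816. Gcnt3, a mucin glycosylation enzyme gene, stood at 90.9 and 86.5, and Ret, the GDNF receptor kinase gene, at 78.1 and 80.2, both against levels of at most 0.774. These genes are known from different tissues.

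The others of the 12 highest were Arhgap31, a GTPase regulator, Ifi203 and Mndal, interferon-inducible genes of 1 family, Ush1c, a scaffold of sensory hair cells and gut epithelium, Esam, an endothelial adhesion gene, Lypd2 and Clec2g. Their piPSC levels ran from 42.4 for Clec2g to 85.3 for Ifi203, and their pluripotent levels were at most 0.951. Ifi203 and Mndal lie in a family of similar genes, so their reads may be shared. In MEF, 50 of the 100 genes were below 1 in both samples, and 11 were at 10 or more in both, Arhgap31 (21.9 and 23.1) and Ifi203 (15.1 and 15.5) among them. In the 4 C57/B6 pluripotent samples 67 of the 100 were below 1 throughout and none was at 10 or more throughout, and in the 6 Nanog-null samples these counts were 54 and 0. So 50 of the genes were below 1 both in MEF and in the pluripotent samples of the comparison.

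The gene with the largest piPSC level relative to pluripotent cells among the amino acid transporters was Slc38a5, a glutamine and glycine carrier. It stood at 1952 and 1931 in piPSC, 5.01 and 2.71 in ESC, 2.60 in iPSC and 0 in both MEF samples. Its log2 change was 9.10 ± 0.37 (edgeR, adjusted p = 3.7e-05), and in the C57/B6 pluripotent and the Nanog-null samples it did not exceed 4.08. Slc7a11, the cystine carrier, stood at 10.8 and 9.48 in piPSC against 0.488, 0.483 and 0.441. Slc38a4, named above, went the other way, so 2 carriers of the same family differed in opposite directions. Of 17 transporter genes, all tested, 5 rose (29.4%) and 4 fell (23.5%), with a median log2 change of 0.71. Over all genes tested the shares were 20.2% and 23.8%, so the transporters as a list were close to them. The Slc38a5 promoter is shown because this gene had the largest change among the transporters. MYC, whose RNA was high in the same samples, binds the E-box CACGTG. The window holds the 250 bases before the RefSeq start (GRCm38.p6, chrX:8271131-8271380, plus strand).
Slc38a5: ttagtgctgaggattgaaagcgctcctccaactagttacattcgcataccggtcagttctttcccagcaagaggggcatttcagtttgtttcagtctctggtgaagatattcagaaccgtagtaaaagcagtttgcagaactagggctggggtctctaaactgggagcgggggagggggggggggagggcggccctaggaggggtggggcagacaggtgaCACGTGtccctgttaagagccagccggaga
The capitals mark an E-box CACGTG that starts 30 bases before the gene start. Of all 27025 RefSeq windows, 1956 (7.24%) held that motif, so the match is a description and no site of binding was measured.

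Most listed genes that MYC is known to activate were not called, while Myc RNA was high and RNA of its family member Mycn low. Mycn stood at 0.201 and 0.323 in piPSC against 17.8, 17.7 and 23.2 in the pluripotent samples. The part of either gene in the levels of the listed genes was not tested. Of 18 genes on that list, all tested, 1 rose and 1 fell, and the median log2 change was -0.17. The median was negative under every alternative tried, from -0.33 to -0.06. Npm1, a nucleolar protein gene, stood at 2065 and 2085 in piPSC against 2840, 2862 and 3045. Odc1, the ornithine decarboxylase gene, fell, at 68.0 and 62.7 against 201, 206 and 345. Srm, the spermidine synthase gene, was the member that rose, at 147 and 140 against 53.1 and 51.9 in ESC and 90.8 in iPSC, and it lost the call without piPSC 1 or 2 (edgeR, adjusted p = 0.066 and 0.054) and without ESC 1, where its log2 change was 0.99.

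Some metabolic genes were lower in piPSC, among them one of the glucose transporters. Slc2a3, the high-affinity glucose transporter gene, stood at 6.96 and 8.42 in piPSC against 413, 370 and 359, a log2 change of -5.75 ± 0.20, while Slc2a1, the common glucose transporter gene, was not called. Gapdh stood at 789 and 702 against 2378, 2123 and 2061, and Aldoa at 253 and 337 against 1066, 901 and 863. Of 20 glycolysis and hypoxia genes, all tested, 7 fell (35%) and 4 rose (20%), with a median log2 change of -0.17. Over all genes tested the shares were 23.8% and 20.2%. Without piPSC 1 or without piPSC 2, 1 rose, and without the iPSC sample 2 rose. Tdh, the threonine dehydrogenase gene on which mouse ESC depend, stood at 3.25 and 2.84 against 19.9, 22.4 and 17.5. Gldc and Amt, subunits of the glycine cleavage system, stood at 0.582 and 0.461 and at 1.32 and 1.91 in piPSC, against no less than 11.0 and 74.3. Of 15 genes of threonine and one-carbon metabolism, all tested, 7 fell and none rose, with a median log2 change of -0.94.

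Some markers of other cell types rose in piPSC, while defining genes of those types were at low levels. On the stratified epithelial list, 13 of 22 genes could be tested, 9 rose and none fell, with a median log2 change of 2.53. Of the 22, 15 were below 1 in every pluripotent sample and 12 in both piPSC samples. Members low in the pluripotent samples could pass the filter through piPSC, so the count describes the list and is no separate support. Nccrp1, an epithelial F-box gene, stood at 396 and 545 in piPSC against 1.70, 1.54 and 0.837, and Lgals7, a keratinocyte galectin gene, at 363 and 309 against 1.61, 1.20 and 1.06. Perp, a desmosome gene, stood at 163 and 150 against 8.74, 8.62 and 6.91. The keratins Krt5 and Krt14 and the master factor Trp63 were at most 0.456 in piPSC. Krt14 and Trp63 passed the test at these low levels, Trp63 not without either ESC sample. Of the list, 4 rose without piPSC 1, 5 rose without piPSC 2, and 1 fell without the iPSC sample.

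Simple epithelial genes, which rise during the mesenchymal-to-epithelial change of reprogramming, were mostly low. Cdh1, E-cadherin, stood at 8.83 and 10.5 in piPSC, 163 and 159 in ESC, 71.6 in iPSC and 0.291 and 0.392 in MEF. Its log2 change was -3.77 ± 0.43, and the piPSC lay between MEF and the pluripotent samples. Epcam, an epithelial adhesion gene, showed the same order, at 4.58 and 7.45 in piPSC against 15.1 to 35.6, and lost the call without piPSC 1 (edgeR, adjusted p = 0.075). Cldn4, a tight junction gene, stood at 0.561 and 0.517 against 57.5 and 54.5 in ESC and 16.9 in iPSC. Of 26 genes, all tested, 14 fell (7 without piPSC 1) and 1 rose (0 without piPSC 1 or either ESC sample, 2 without the iPSC sample), with a median log2 change of -1.83.

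Of 12 tested blood genes (18 in the list), 6 rose (3 without piPSC 2) and 4 fell, with a median log2 change of 0.87. The highest were members of the Ly6 family of surface antigens. Ly6a, also called Sca-1 and used to sort stalled cells in reprogramming, stood at 591 and 558 in piPSC against 16.6, 17.6 and 13.4, a log2 change of 5.19 ± 0.16. Ly6c1 stood at 358 and 345 against 2.19, 1.80 and 1.38, but Ly6c1 and Ly6c2 are similar and their reads may be shared. Ptprc, the pan-leukocyte marker, was at most 0.0133 in the 5 samples. Kit, the stem cell factor receptor gene, fell, at 1.68 and 1.61 against 45.5, 45.2 and 29.6, and Alpl, the alkaline phosphatase gene used to stain pluripotent colonies, at 2.84 and 4.51 against 170, 174 and 119.

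Markers of other lineages were at unequal levels. Of the 8 endothelial genes, 5 were at an FPKM of at least 10 in both piPSC samples and 1 was in all 3 pluripotent samples. Their summed FPKM was 119 to 131 in piPSC and 51.6 to 86.0 in the pluripotent samples. Of the 6 tested, 2 rose (33.3%; 3 without the iPSC sample) and 1 fell (2 without ESC 2, 0 without piPSC 2). Esam, described above, and Tek, an angiopoietin receptor gene, rose, and Tek stood at 16.9 and 12.4 in piPSC against 1.74, 1.41 and 4.28. Tie1, a related receptor gene, stood at 16.0 and 12.7 against 1.09 and 1.02 in ESC and 9.23 in iPSC. It was not called, but it was without the iPSC sample, with a log2 change of 3.84. Kdr, a VEGF receptor gene, and Cdh5, the gene of the endothelial cadherin, were at most 0.0553 in piPSC. Kdr fell, but not without piPSC 1 or without piPSC 2.

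On the neural list Pax6, a homeobox factor of neural and eye tissue, stood at 6.12 and 9.31 in piPSC against 0.824 and 1.0 in ESC and 0.996 in iPSC. Of 11 tested neural genes, 3 rose and 6 fell (3 without piPSC 1). Of 8 tested trophoblast genes (12 in the list), 1 rose (4 without the iPSC sample) and 3 fell. The gene that rose was Tead4, a transcription factor, at 26.4 and 36.6 in piPSC against 11.6, 11.6 and 14.0, while Cdx2 and Elf5 were at most 0.233 in piPSC. Of 12 tested primitive endoderm genes (15 in the list), 1 rose and 6 fell. The gene that rose was Dab2, an endocytic adaptor, at 17.7 and 18.2 against 1.67, 1.30 and 1.70. Of 6 tested mesendoderm genes (11 in the list), 1 rose and 5 fell (3 without the iPSC sample or piPSC 2), and no member reached an FPKM of 1 in piPSC. Of 3 tested macrophage genes (8 in the list), none rose (1 without the iPSC sample) and 1 fell, and Lyz2 and Csf1r were at most 0.0260 in piPSC. Of 6 markers taken as defining for pluripotent cells, Nanog, Zfp42, Dppa5a, Utf1 and Sall4 stood below 1% of the pluripotent level and Tdgf1 at 23.2%.

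A few homeobox genes of the Hox clusters, which Polycomb complexes keep off in pluripotent cells, were on. At an FPKM of 10 or more in both piPSC samples stood 3 of 39, and 21 were below 1 in both. In all 3 pluripotent samples these counts were 0 and 24. Of 39, 30 could be tested, and 15 rose and 6 fell, with a median log2 change of 1.06. Hoxa9 stood at 30.3 and 43.7 in piPSC against 0.741 and 1.27 in ESC and 2.99 in iPSC, and Hoxa10 at 15.5 and 18.9 against 2.38, 2.17 and 3.32. Hoxa7 stood at 22.1 and 20.6 against 1.34, 1.36 and 4.02. Log2 changes were 4.40 ± 0.59 for Hoxa9 and 3.13 ± 0.52 for Hoxa7, which became 5.21 and 3.89 without the iPSC sample. In MEF these 3 genes stood at 2.22 to 7.39, below the piPSC. The count of Hox genes that rose was 7 without piPSC 2, and 7 with limma on log2(FPKM + 1). Without piPSC 1 or without piPSC 2, 3 Hox genes fell.

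**Figure D4:**
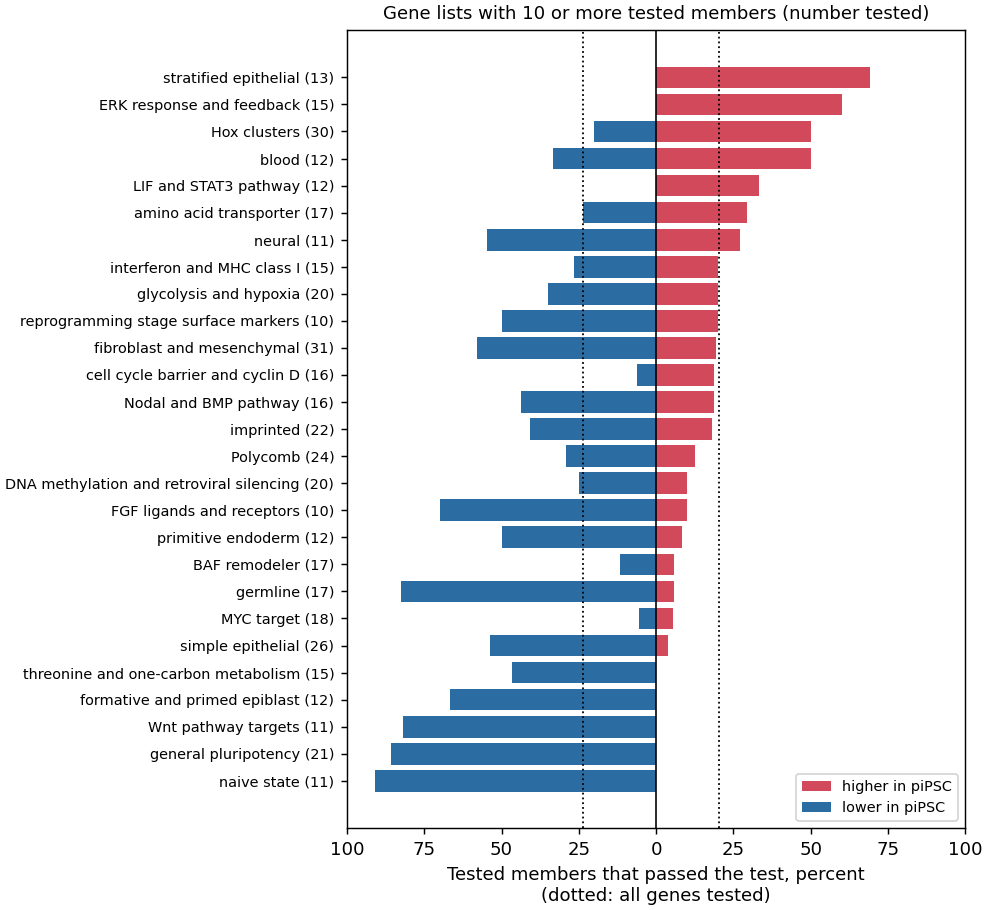
Percent of the tested members of each list that passed the test, higher in piPSC to the right and lower to the left, for lists with 10 or more tested members. Dotted lines give the shares over all genes tested (20.2% and 23.8%). The naive, general pluripotency, germline and Wnt lists extend to the left beyond 80%, and the stratified epithelial and ERK lists to 60% or more on the right.

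Imprinted genes and cell cycle genes showed individual changes. Meg3, a long noncoding RNA from the imprinted Dlk1-Dio3 region that is often silenced in iPSC of low quality, stood at 0.198 and 0.111 in piPSC against 51.9 and 51.8 in ESC and 28.6 in iPSC. Rian, another noncoding RNA of that region, was on and not called, at 19.9 and 8.34 in piPSC against 30.0, 31.0 and 15.1. H19 stood at 3.11 and 4.82 against 67.1, 63.4 and 71.2, Igf2 at 0.303 and 0.378 against 13.1, 13.1 and 22.5, and Grb10 at 0.547 and 0.453 against 28.0, 27.0 and 35.3. Meg3, H19, Igf2 and Grb10 were all above 100 in MEF, Igf2 at 1050 and 1071, so for them the piPSC were low beside both. As for the collagen genes, the part of fibroblast RNA in the pluripotent levels was not tested. Of 22 imprinted genes, all tested, 9 fell and 4 rose (2 without piPSC 1), with a median log2 change of -0.84. Cdkn1c, an imprinted inhibitor of the cell cycle, rose to 79.1 and 63.4 against 3.18, 2.31 and 6.91. Cdkn2a, the Ink4a/Arf gene that limits reprogramming, fell, at 5.54 and 9.14 against 33.9, 34.6 and 24.0.

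Sex-linked RNA differed between the groups. Xist, the noncoding RNA that coats an inactive X chromosome, stood at 314 and 320 in piPSC against 3.35, 3.09 and 3.15. The Y-linked gene Eif2s3y stood at 0.084 and 0 in piPSC, 10.5 and 10.9 in ESC and 1.93 in iPSC. Of 5 sex-linked genes, all tested, 4 fell and 1 rose. Below an FPKM of 1 stood 4 in both piPSC samples and 1 in every pluripotent sample. The origin of clone B1 and its reprogramming state cannot be told apart in this design. Slc38a5 lies on the X chromosome, and the part of X-linked dosage in its level was not tested.

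The 2 piPSC samples were alike but not copies. Of 6874 tested genes with a mean piPSC level of at least 10, 24 (0.349%) differed 2-fold or more between them. Among these, chosen after their values were seen, Cldn1, a tight junction gene, stood at 20.9 in piPSC 1 and 1.90 in piPSC 2. Npy, a neuropeptide gene, stood at 12.6 and 36.8, and Slc2a1 at 34.6 and 83.3. The log2 change of Slc2a1 was 0.75 without piPSC 1 and -0.48 without piPSC 2. Their fragments differed by a chi-square of 25.5 per gene, beyond sampling noise, against 3.63 for the 2 ESC samples.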

How the data were processed

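RNA-seq tables of 17 mouse samples were used, 5 of them in the fit. Per the submitters' processing notes the tools were Cuffdiff 2.1.1, Bowtie2 2.0.5, TopHat2 2.0.7 and CASAVA. Their order, strand setting and parameters are not given in the sources used here. Per the file headers, the authors deposited estimated counts of fragments per gene and FPKM. Estimated counts were rounded and tested in edgeR 4.0.16 (R 4.3.3; TMM scaling, quasi-likelihood test, 3 residual degrees of freedom), without a replicate block, after leaving out 13 genes whose status was not OK in 1 or more of the 5 samples. The script was checked on simulated data with a smaller spread than that of these samples, so the check gives no error rates for them. FPKM were used for levels. Alternatives were other scalings, DESeq2 1.42.0, limma 3.58.1 on FPKM, other filters, references and folds, the replicate block and leaving out each sample.

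Genes named were the 4 factors and Nanog, the 12 highest of each on/off set, and members of lists. The sets, lists and alternatives were chosen with earlier results of these data known. Promoter sequences are from RefSeq (GRCm38.p6). No pair of samples was a duplicate. A few genes that are included in the counts are not reported here.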

Additional observations from a re-analysis of the deposited data

How the results depend on the processing

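The counts of called genes stayed within 1.5 times of those reported under the alternatives tried, with these exceptions. Requiring a mean FPKM of at least 5, which leaves fewer genes, gave 1531 higher and 1439 lower. Requiring 4-fold gave 1740 higher. limma on log2(FPKM + 1) gave 2238 lower, a scale that shrinks changes of low genes. Leaving out each sample gave 2323 to 3497 higher and 2765 to 3876 lower. The 143 genes off in piPSC became 292 with limits of 5 and 1 FPKM and 72 with limits of 20 and 1, and 144 to 184 without single samples. The 100 genes on in piPSC became 209, 44 and, with limits of 10 and 0.5, 60, and 104 to 128 without single samples. For 6 genes that were not called the sign of the log2 change depended on the setting, and the cause was not tested. With upper-quartile scaling L1td1 was at -0.017 and Ier3 at -0.014. Against iPSC alone Ier3 was at -0.045, Id3 at -0.93 and Spry1 at -0.43, and against ESC alone Dusp5 was at 0.27. Without single samples Dusp5 ranged from -0.64 to 0.26, Id3 from -0.20 to 1.56, Ier3 from -0.011 to 0.21, Slc2a1 from -0.48 to 0.75 and Spry1 from -0.35 to 0.71. The replicate numbers were used as a block in an added term, which gave 3081 higher and 3610 lower. Same-numbered ESC and piPSC samples showed almost no shared deviation (correlation over genes 0.0047, 2 pairs). With 2 samples of each kind, this cannot tell whether same-numbered samples were handled together. The median of all genes was -0.17 with upper-quartile scaling against -0.05. Keeping the genes with status FAIL was chosen after seeing the data and gave 3244 and 3827. With no fold required, 4710 genes were higher and 5222 lower. The samples come from 1 clone, so other clones were not tested.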
